A study of Mus musculus with 16 samples.

Results

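The genes described here are 10 of the 22440 in the deposited expression tables, namely the transcription factors Mef2a, Mef2c, Mef2d, Creb1, Crem, Srf and Elk1 and the coactivators Crtc1, Crebbp and Ep300. They were chosen by symbol as regulators that turn neuronal activity into transcription, and all 10 were listed in all 4 libraries. The libraries came from cultured primary cortical neurons of Swiss-Webster mouse embryos at embryonic day 16, with 1 RNA-seq library per group. They were an etoposide library (etoposide at 5 µM, length not given) with the control titled CTRL, and an NMDA library with the control titled CTRL2, whose titles name no treatment. Most experiments of the study, per the labels, exposed neurons to 50 µM NMDA during 10 min and let them recover for another 10 min, and whether the RNA-seq culture followed that schedule is not said. Etoposide traps topoisomerase II while its DNA strands are cut, and NMDA opens a class of glutamate receptor. The other 12 samples of the series are chromatin samples and were not analysed here.

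CREB (Creb1) sits on a DNA element called CRE and becomes active when kinases switched on by calcium or cyclic AMP phosphorylate it. It then recruits the histone acetyltransferases CBP (Crebbp) and p300 (Ep300), and CRTC1 enters the nucleus after synaptic activity as a further coactivator. Crem encodes activators and repressors of the same element, among them a short inducible repressor made from an internal promoter. MEF2 factors limit excitatory synapse number in an activity-dependent way and are held in check by class IIa histone deacetylases. SRF binds the CArG box of immediate early and actin cytoskeleton genes, either with ternary complex factors such as ELK1, which growth factor signalling activates, or with actin-sensing cofactors. Most of this control acts on the proteins, and the values below are transcript levels alone.

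The promoters of 2 members carried sites for members of the same group, and they are printed because SRF and MEF2 are themselves members and both genes were lower with etoposide. Lower with etoposide were 9 of the 10 members and 76.7% of all genes compared, and a link between the sites and these levels was not tested. RefSeq promoter windows (250 bases before each transcript start, build GRCm38.p6) matched 9 of the 10 genes, in 11 windows. Sites were sought on both strands, and a site could run up to 10 bases past the start. The Srf window holds 2 CArG boxes, shown in capitals. It lies at chr17:46693112-46693361 in mm9, minus strand, by exact match:
Srf: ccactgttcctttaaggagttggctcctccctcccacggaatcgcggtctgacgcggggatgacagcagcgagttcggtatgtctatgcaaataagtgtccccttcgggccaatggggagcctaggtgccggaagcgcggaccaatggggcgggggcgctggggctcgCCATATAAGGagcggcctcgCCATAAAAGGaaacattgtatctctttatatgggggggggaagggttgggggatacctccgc
CArG boxes, the sites SRF binds, were found in 1 of the 11 windows and in 1.50% of 32851 windows of all genes. The start of Mef2a lies inside a MEF2 site, in capitals, at chr7:74517737-74517764 in mm9, minus strand:
Mef2a: ctggccgaggcctgactcCTAAAAATAG
MEF2 sites were found in 1 of the 11 windows and in 2.97% of all. The full CRE, TGACGTCA, was in 0 of the 11 and in 1.65% of all. Its shorter core TGACG, which the full CRE contains, was in 1, that of Srf, and in 18.4% of all.

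Values are FPKM, fragments per kilobase of transcript scaled to the library's fragment total, which allows genes to be ordered within a library. Fragment totals read from the spacing of low values were near 11.8 M in the etoposide library, 14.7 M in CTRL, 17.8 M in the NMDA library and 19.3 M in CTRL2. The intervals in brackets are 95% intervals from the approximate fragment numbers these totals give, and they cover counting error only. No difference has a replicate check, so no p-value is given. FPKM of genes at 5 or more in both libraries had a median ratio of 0.787 for etoposide over CTRL, 1.03 for NMDA over CTRL2 and 2.88 for CTRL2 over CTRL. Values called scaled below are divided by that median. A single microRNA gene, Mir5109, held between 51.9% and 76.5% of the summed FPKM of a library. The cultures also differed in glial transcripts: the summed FPKM of 8 astrocyte markers was 945 in CTRL2 and 103 in CTRL. RNA came from whole cultures, where fewer cells of a type and less RNA per cell cannot be told apart.

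Mef2c, a factor of maturing cortical neurons, was the most abundant member in every library and the member with the lowest ratio in the etoposide comparison (chromosome 13, 83643033 to 83806684, mm9). Its level was 13.5 FPKM in the etoposide library and 52.8 FPKM in CTRL, and 135 FPKM in the NMDA library and 116 FPKM in CTRL2. It was 3.92-fold lower with etoposide (3.67 to 4.20), and the authors' deposited table, which holds the same FPKM, lists it as the single member. That table lists 680 genes as lower, and its lower genes make up 6.28% of the 10681 genes compared, those at FPKM 1 or above in 1 or both libraries, and its higher genes 0.0936%. The scaled difference was 3.09-fold. Its log2 fold of -1.90 on the log2(FPKM + 1) scale lay at percentile 0.215 of all genes compared.

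Mef2a and Mef2d, the other MEF2 genes of the set, were lower with etoposide by less. Mef2a (chromosome 7, 74378717 to 74517744) was at 3.75 FPKM in the etoposide library and 7.95 FPKM in CTRL, 2.12-fold lower (1.70 to 2.66), and at 23.1 FPKM in the NMDA library and 20.7 FPKM in CTRL2. Mef2d (chromosome 3, 87946317 to 87973089) was at 5.48 and 9.84 FPKM in the etoposide and CTRL libraries, 1.80-fold lower (1.53 to 2.12), and at 28.2 and 25.1 FPKM in the NMDA and CTRL2 libraries. The 3 genes also differed in their proportions. Mef2c made up 59.3% of the summed MEF2 FPKM in the etoposide library and 74.8% in CTRL, and 72.5% in the NMDA library and 71.7% in CTRL2. Such shares do not depend on how a library was scaled. The FPKM ratio of Mef2c to Mef2d was 2.46 (2.13 to 2.84) in the etoposide library and 5.36 (4.89 to 5.88) in CTRL, and 4.79 and 4.61 in the NMDA and CTRL2 libraries. An exon of the annotated gene 1700113A16Rik overlaps Mef2d on the opposite strand, and the sources used here do not say whether counting used strand.

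Markers of several cell classes were lower in the same library. All 7 measured excitatory neuron markers were below 0 on the log2 scale with etoposide, with a median of -0.55 and summed FPKM of 47.6 in the etoposide library and 88.0 in CTRL. The median of all genes was -0.32, and 76.7% of them were below 0. Medians were lower still for pan-neuronal markers, at -0.85 over 6 measured, astrocyte markers, at -0.87 over 7, and progenitor markers, at -1.50 over 3. Among the excitatory markers Tbr1, a deep-layer factor, was at 3.03 FPKM in the etoposide library and 3.89 FPKM in CTRL. Mef2c is also made by microglia and endothelial cells, whose markers were near the floor: the 7 microglial markers summed to 0.350 FPKM in the etoposide library and 0.386 FPKM in CTRL, with Tmem119 at 0 in the etoposide library and C1qa at 0 in CTRL, and Cldn5, which defines brain endothelium, was at 0 in both. The part of cell composition in the Mef2c difference was not tested.

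**Figure D1:**
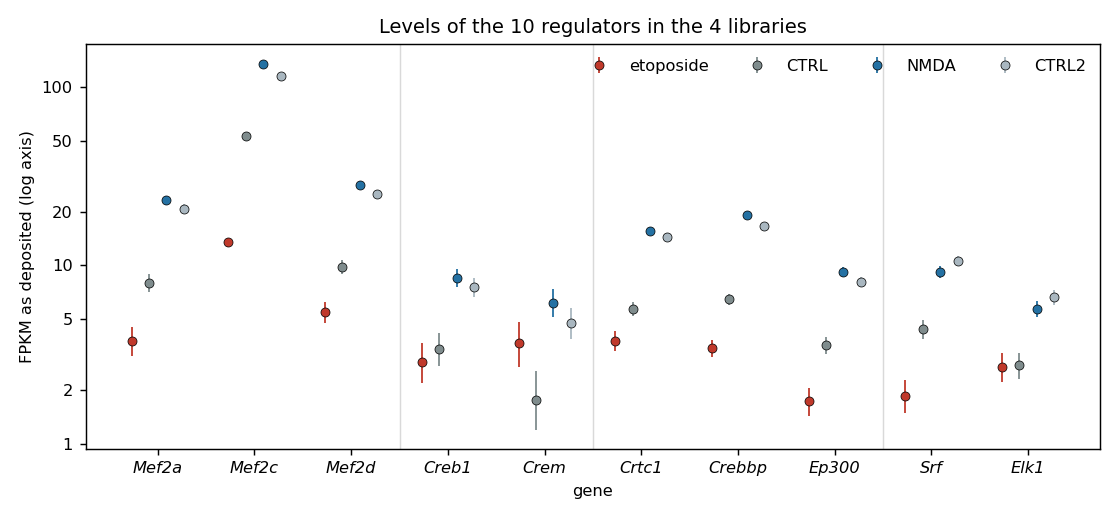
FPKM as deposited (log axis) of the 10 regulators in the etoposide, CTRL, NMDA and CTRL2 libraries, 1 library each, with bars for approximate 95% counting intervals. Mef2c is highest in every library (13.5, 52.8, 135 and 116 FPKM), and Crem is the gene whose etoposide point lies above its CTRL point (3.67 and 1.75 FPKM).

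Crem was the exception, the 1 member higher with etoposide (chromosome 18, 3266352 to 3366861). It was at 3.67 FPKM in the etoposide library and 1.75 FPKM in CTRL, a ratio of 2.09 (1.27 to 3.39) from about 48 and 29 fragments, and at 6.18 FPKM in the NMDA library and 4.74 FPKM in CTRL2, a ratio of 1.30 (0.990 to 1.71). Both treated libraries thus stood above their own controls, and the NMDA interval includes 1. Genes higher by any amount on the log2(FPKM + 1) scale were 23.3% of those compared for etoposide and 57.2% for NMDA. The log2 fold of Crem was 0.76 with etoposide, under the 2-fold size rule used here, and 1.04 after scaling, where 1.32% of all genes passed that rule upward and 2.69% downward, Mef2c among them. The fold lay at percentile 98.9 of all genes with etoposide and at percentile 97.8 with NMDA. Crem was not in either of the authors' deposited tables.

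Crem values carry limits of their own. Its 34 annotated coding transcripts run from 436 to 2931 bases, gene-level FPKM does not separate the inducible repressor from the rest, and the fragment numbers assume the median of 1116 bases. Gm6225, which the tables give the same locus and whose exon overlaps Crem on the opposite strand, was at 0.791 FPKM in the etoposide library and 0.244 FPKM in CTRL. Against CTRL2, which lies on a higher FPKM scale, Crem in the etoposide library was lower as deposited (ratio 0.775) and 3.08-fold higher after scaling (2.12 to 4.35).

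Creb1, the activator of the same family, differed little (chromosome 1, 64579378 to 64651122). It was at 2.85 FPKM in the etoposide library and 3.38 FPKM in CTRL, a ratio of 0.845 (0.598 to 1.17), and at 8.51 and 7.54 FPKM in the NMDA and CTRL2 libraries, a ratio of 1.13 (0.949 to 1.34). Both intervals include 1. The 7 annotated coding transcripts of Creb1 run from 321 to 8420 bases, and its fragment numbers assume the median of 1848 bases. Were a longer form in use, these intervals and those of the Crem to Creb1 ratio would be narrower, and with a shorter form wider. The balance of the family differed in the etoposide library: the FPKM ratio of Crem to Creb1 was 1.29 (0.884 to 1.87) there and 0.519 (0.342 to 0.790) in CTRL. In the NMDA library it was 0.725 (0.587 to 0.897), against 0.628 (0.500 to 0.789) in CTRL2, with intervals that overlap. The intervals of the etoposide and NMDA libraries overlapped too, while those of the etoposide library and either control did not.

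The coactivators were lower with etoposide against CTRL. Crebbp (chromosome 16, 4084048 to 4213404) was at 3.42 FPKM in the etoposide library and 6.45 FPKM in CTRL, 1.88-fold lower (1.65 to 2.17). Ep300 (chromosome 15, 81416644 to 81482507) was at 1.73 and 3.55 FPKM in the same libraries, 2.06-fold lower (1.67 to 2.58), with the annotated AC160528.1 overlapping it on its own strand. The FPKM ratio of Crebbp to Ep300 was alike throughout, at 1.98 and 1.82 in the etoposide and CTRL libraries and at 2.09 and 2.05 in the NMDA and CTRL2 libraries. Crtc1 (chromosome 8, 72906257 to 72963472) was at 3.77 FPKM in the etoposide library and 5.68 FPKM in CTRL, 1.50-fold lower (1.29 to 1.76). Against CTRL2 after scaling the ratio was 1.04 (0.909 to 1.19) for Crtc1, 0.822 (0.726 to 0.926) for Crebbp and 0.849 (0.693 to 1.02) for Ep300, so the lower coactivator levels were clear of counting error against both controls for Crebbp alone. In the NMDA and CTRL2 libraries Crebbp was at 19.1 and 16.6 FPKM, Ep300 at 9.15 and 8.08 FPKM, and Crtc1 at 15.5 and 14.4 FPKM.

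Srf was lower in both treated libraries, while its partner Elk1 was near its control in the etoposide library. Srf (chromosome 17, 46683788 to 46693111) was at 1.84 FPKM in the etoposide library and 4.39 FPKM in CTRL, 2.38-fold lower (1.87 to 3.07), and at 9.18 FPKM in the NMDA library and 10.6 FPKM in CTRL2, 1.15-fold lower (1.04 to 1.28). Elk1 (chromosome X, 20510521 to 20527726) was at 2.67 and 2.74 FPKM in the etoposide and CTRL libraries, a ratio of 0.974 (0.754 to 1.26). It was at 5.70 FPKM in the NMDA library and 6.62 FPKM in CTRL2, 1.16-fold lower (1.01 to 1.34). The FPKM ratio of Srf to Elk1 was 0.690 (0.523 to 0.912) in the etoposide library and 1.60 (1.31 to 1.96) in CTRL. It was 1.61 in the NMDA library and 1.60 in CTRL2, so the etoposide library stood apart from the other 3. Elk1 shares exon sequence on its own strand with Uxt, which was at 1.90 FPKM in the etoposide library and 1.59 FPKM in CTRL, so reads of the pair are uncertain.

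**Figure D2:**
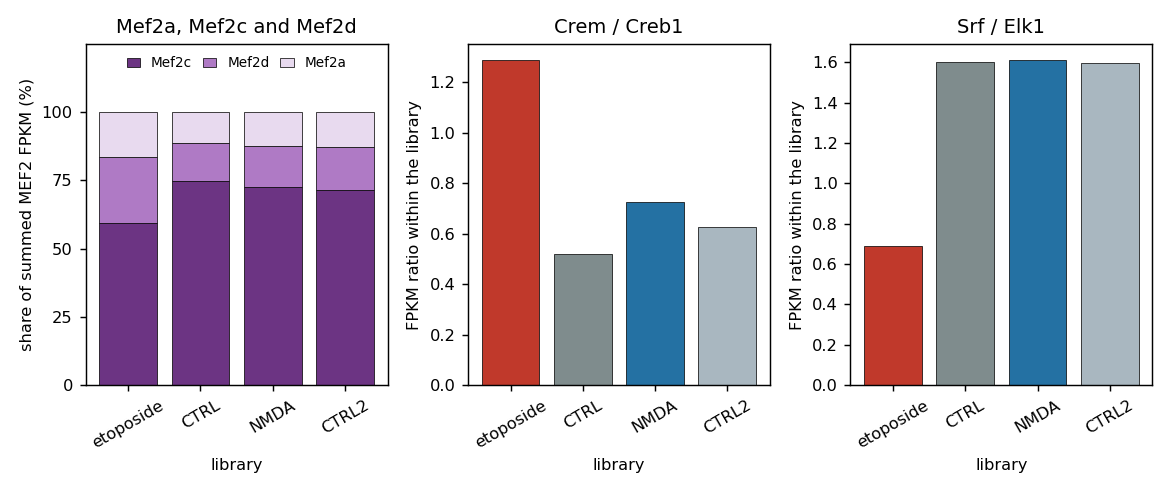
Left, the share of Mef2c, Mef2d and Mef2a in their summed FPKM (percent); middle and right, the FPKM ratios of Crem to Creb1 and of Srf to Elk1, within each of the 4 libraries. The etoposide library has the lowest Mef2c share and Srf to Elk1 ratio and the highest Crem to Creb1 ratio, whose interval overlaps that of the NMDA library, with a Mef2c share of 59.3% against 71.7% to 74.8% elsewhere, a Crem to Creb1 ratio of 1.29 against 0.519 to 0.725, and a Srf to Elk1 ratio of 0.690 against 1.60 to 1.61.

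Counted together for etoposide, 9 of the 10 members were lower, as were 76.7% of all genes compared. The median log2 fold was -0.74 for the members and -0.32 for all genes, and 7 members lay below that median, as 50% of all genes do by definition. On the log2(FPKM + 1) scale 1 member, Mef2c, was at least 2-fold lower (background, the share of all genes compared that passed the same rule, 7.36%) and 0 were at least 2-fold higher (background 0.477%). By the plain FPKM ratio 4 members were at least 2-fold lower, namely Mef2c, Srf, Mef2a and Ep300 (background 15.9%), and Crem was at least 2-fold higher (background 1.37%). After scaling, that ratio kept Mef2c lower (background 6.39%) and Crem higher (background 3.3%).

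The order of the members' levels differed as well. In CTRL it ran Mef2c, Mef2d, Mef2a, Crebbp, Crtc1, Srf, Ep300, Creb1, Elk1 and Crem, and the order in CTRL2 was identical. In the etoposide library Crem stood at rank 5 and Srf and Ep300 at ranks 9 and 10. Intervals of neighbours in that order overlapped in 7 of 9 pairs in the etoposide library, namely each pair from Crtc1 downward, and in 5 of 9 pairs in CTRL, namely Crebbp with Crtc1 and each pair from Srf downward. In the NMDA library Crem stood above Elk1, with overlapping intervals. Overlapping there were 3 of 9 pairs, Srf with Ep300, Ep300 with Creb1 and Crem with Elk1, and in CTRL2 2 of 9, Ep300 with Creb1 and Creb1 with Elk1.

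**Figure D3:**
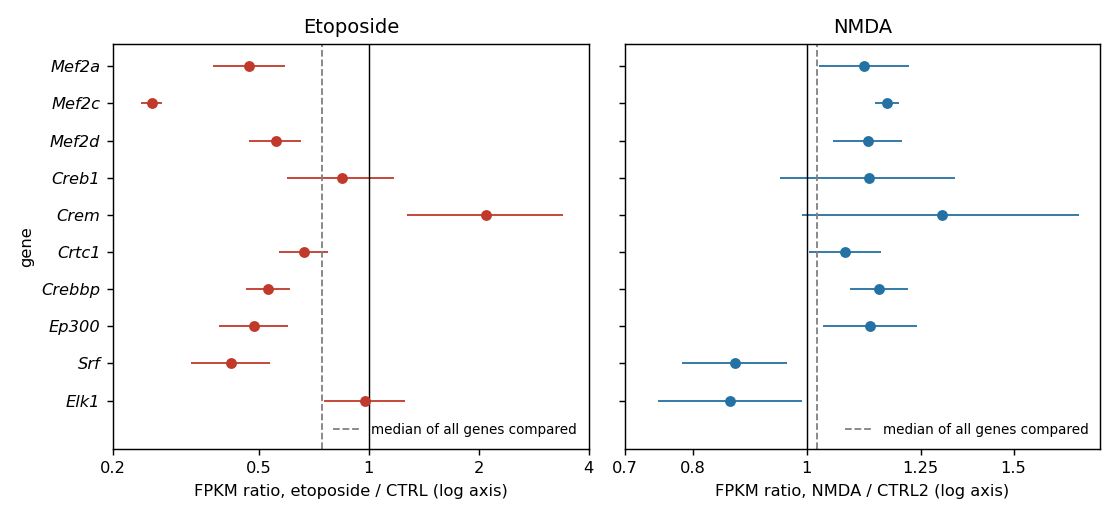
Plain FPKM ratios (log axes) of the 10 regulators, etoposide over CTRL on the left and NMDA over CTRL2 on the right, with approximate 95% counting intervals. The solid line marks a ratio of 1 and the dashed line the median of all genes compared. With etoposide the points run from 0.255 (Mef2c) to 2.09 (Crem), and with NMDA from 0.861 (Elk1) to 1.30 (Crem).

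Longer genes were lower with etoposide across the whole table, and the members followed this in part. In 5 equal bins of genes by genomic span the median log2 fold was -0.09 in the shortest and -0.67 in the longest, which starts at 80.7 kb. Crebbp, with 129 kb and a log2 fold of -0.75, and Mef2a, with 139 kb and -0.91, lay somewhat below that bin's median. By plain FPKM ratio Crebbp, at 0.531, lay close to the bin's median of 0.528, and Mef2a, at 0.472, below it. On the log2 scale Mef2c, with 164 kb and -1.90, lay far below the bin's median, and Crem, with 101 kb and 0.76, far above. The deposited Crem locus reaches past the gene in GENCODE, which runs from 3266046 to 3337746. By that shorter span Crem would fall in the bin with a median of -0.42, also far below its fold. Srf spans 9.32 kb, and its log2 fold of -0.92 compared with a median of -0.16 in its bin, where Elk1, with 17.2 kb and -0.03, also falls. Mef2d spans 26.8 kb, and its log2 fold of -0.74 lay below its bin's median of -0.28. Creb1, Ep300 and Crtc1 span 57.2 to 71.7 kb, with log2 folds of -0.18, -0.74 and -0.48 around a median of -0.42.

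**Figure D4:**
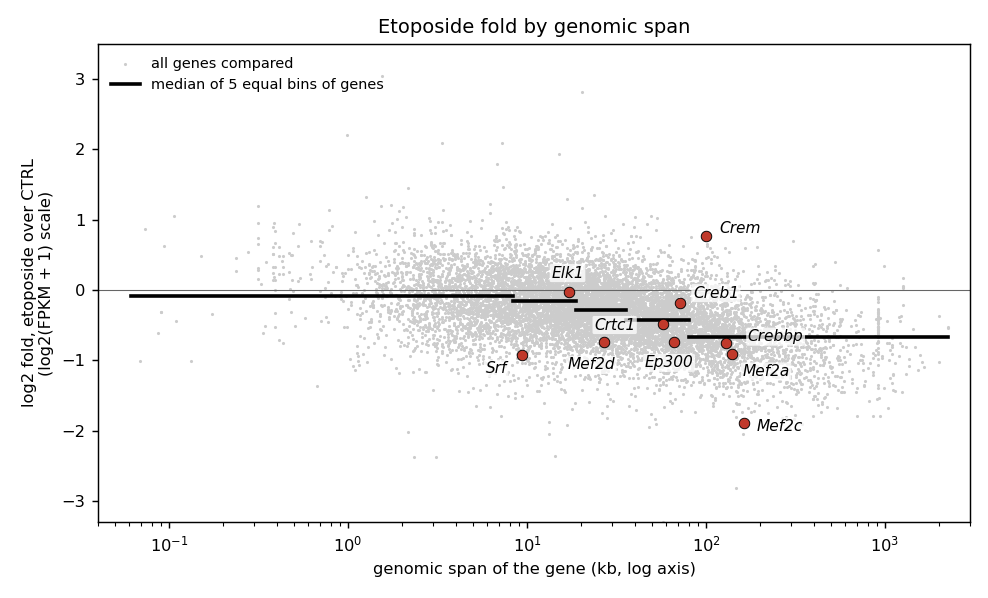
Log2 fold of etoposide over CTRL on the log2(FPKM + 1) scale against genomic span (kb, log axis) for the genes compared in grey, with the 10 regulators in red and black lines for the medians of 5 equal bins; 31 genes lie outside the vertical axis. Crem, placed by its deposited locus, lies above (0.76) and Mef2c below (-1.90) the line of the longest bin (-0.67), and Srf (-0.92) below that of its own bin (-0.16).

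With NMDA the members differed little from CTRL2. Of the 10, 8 were higher and 2, Srf and Elk1, lower, where 57.2% of all genes were higher and 42.8% lower. Their plain ratios ran from 0.861 to 1.30, and the median log2 fold was 0.16 against 0.02 for all 13028 genes compared. None of the 10 was at least 2-fold lower (background 0.729%) or higher (background 0.438%), and none was in the authors' deposited table, whose genes make up 0.192% (higher) and 0.292% (lower) of those compared. At the assumed transcript lengths, intervals included 1 for Creb1 and Crem, and after scaling for Mef2a and Crtc1 as well. Mef2c, the member with the most fragments, was 1.17-fold higher (1.14 to 1.20). Set against CTRL instead and scaled, the NMDA library was lower in Srf, with a ratio of 0.698 (0.605 to 0.808), and in Elk1, with a ratio of 0.695 (0.570 to 0.848). These 2 were lower against either control, but both comparisons share the NMDA library. CTRL2 itself lay below CTRL in all 10 members after scaling (ratios 0.759 to 0.936), so the comparison with CTRL is no independent check. Mef2c and Ep300 were also lower against CTRL, with scaled ratios of 0.857 (0.830 to 0.885) and 0.861 (0.757 to 0.983), opposite to their direction against CTRL2.

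The 2 untreated libraries give a measure of how far cultures lay apart. All 10 members had higher FPKM in CTRL2 than in CTRL, with ratios from 2.19 (Mef2c) to 2.70 (Crem), as had 98.4% of all genes. After scaling the ratios ran from 0.759 to 0.936, at most 1.32-fold from 1. Scaled in the same way, 7 members differed by more than 1.32-fold between the etoposide library and CTRL: Mef2c, Crem, Srf, Mef2a, Ep300, Crebbp and Mef2d. The cut is the members' own largest untreated difference, and 49.8% of all genes compared exceeded it. With NMDA 0 of the 10 did, as did 7.49% of all genes, and the greatest was Crem at 1.27-fold. Set against CTRL2 instead and scaled, the etoposide library was 2.16-fold lower in Mef2c (2.03 to 2.30), 1.44-fold lower in Srf (1.16 to 1.81) and 1.39-fold lower in Mef2a (1.14 to 1.70). Crebbp, Ep300 and Mef2d then lay within 1.32-fold, 1.22-fold, 1.18-fold and 1.15-fold lower in that order, and the interval of Ep300 included 1. Against that control Elk1 was higher, with a ratio of 1.61 (1.30 to 1.98), and so was Creb1, with a ratio of 1.50 (1.12 to 1.98). The etoposide comparisons share the etoposide library, so they are not independent.

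Most enzymes and cofactors that act on these factors were lower with etoposide, as were most genes. Of 58 measured kinases, phosphatases, deacetylases, cofactors and family members other than the 10, 54 were below 0 (background 76.7%), 6 were at least 2-fold lower (background 7.36%) and 0 higher (background 0.477%). Their median log2 fold was -0.58, beside -0.32 for all genes. Ppp3ca, a catalytic subunit of calcineurin, the phosphatase that activates MEF2 and CRTC1, was at 19.0 FPKM in the etoposide library and 69.5 FPKM in CTRL, 3.65-fold lower (3.31 to 4.03) and listed as lower in the authors' deposited table. Ncoa2, a nuclear receptor coactivator that also acts with MEF2C, was at 2.63 FPKM in the etoposide library and 6.81 FPKM in CTRL. The MEF2 corepressor Hdac4 was at 2.05 FPKM in the etoposide library and 4.93 FPKM in CTRL, and Hdac9, of the same class, at 3.15 FPKM in the etoposide library and 6.74 FPKM in CTRL. On the CREB side, the kinase genes Rps6ka2, Camk2b and Camkk2 and the adenylyl cyclase gene Adcy1 were 2.19-fold to 2.60-fold lower by FPKM. On the SRF side, Map2k1, a kinase of growth factor signalling, was 2.02-fold lower, and Mkl1, the actin-sensing cofactor, was at 1.14 FPKM in the etoposide library and 2.89 FPKM in CTRL. Crtc3, a relative of Crtc1, was at 0.547 FPKM in the etoposide library and 1.43 FPKM in CTRL. Against CTRL2 after scaling, the medians were -0.07 for CREB kinases, -0.10 for MEF2 regulators and -0.02 for SRF cofactors, beside -0.10 for all genes.

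Known targets of the 3 factor families did not go the same way with etoposide. The lists of targets and regulators were written with earlier results of these data known, so their counts are a description and no test. CREB targets were mostly higher: of 17 measured, 13 were above 0 on the log2 scale (background 23.3%), with a median of 0.64 beside -0.32 for all genes. The 2-fold rule was passed upward by 4 (background 0.477%) and downward by 0 (background 7.36%). The 4 were Cort at 18.1 FPKM in the etoposide library and 1.31 FPKM in CTRL, Fos at 14.7 and 2.68 FPKM in the same libraries, Sst at 87.9 and 34.6 FPKM and Nr4a2 at 3.84 and 0.981 FPKM. Cort and Sst are interneuron peptides, and Fos and Nr4a2 early-response factors. Without Sst itself, the other 7 inhibitory neuron markers summed to 41.5 FPKM in the etoposide library and 65.1 FPKM in CTRL. With Sst, 5 of the 8 were below 0 (background 76.7%) and 3, namely Sst, Dlx1 and Npy, above. Against CTRL2 after scaling the 8 had a median of 0.41 beside -0.10 for all genes. There 2 were at least 2-fold higher (background 4.74%) and 1 lower (background 12.5%). The part of inhibitory neurons in the Sst and Cort values was not tested. Fos and Cort also differed between the untreated libraries, at 25.9 and 8.35 FPKM in CTRL2. After scaling, the log2 folds of CTRL2 over CTRL were 1.44 for Fos, 0.75 for Cort, 0.54 for Sst and 0.05 for Nr4a2. The median of all genes there was 0.09. The CTRL value of Cort rests on about 13 fragments. Against CTRL2 after scaling, 19 of 19 CREB targets were above 0, where more of all genes were below 0 than above. Both comparisons share the etoposide library, so the count is no independent check. The median was 0.67 for these targets and -0.10 for all genes. The 2-fold rule was passed upward by 5 of them (background 4.74%) and downward by 0 (background 12.5%). Of 16 measured MEF2 targets, 14 were below 0 (background 76.7%), with a median of -0.60. After scaling the median of all genes was -0.06 against CTRL and -0.10 against CTRL2. That of the MEF2 targets was -0.32 against CTRL and 0.11 against CTRL2, so the direction of this list turned with the control. Among them Pcdh10, a cell adhesion gene, was at 6.93 FPKM in the etoposide library and 15.2 FPKM in CTRL, and Kcna1, a potassium channel gene, at 2.34 FPKM in the etoposide library and 5.14 FPKM in CTRL, while Nr4a1, a target shared with the CREB list, was at 3.71 FPKM in the etoposide library and 1.62 FPKM in CTRL.

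SRF targets went both ways. Of 21 measured, 6 were at least 2-fold lower (background 7.36%) and 3 passed that size upward (background 0.477%). Their median was -0.72, beside -0.32 for all genes. Against CTRL2 after scaling it was -0.33, beside -0.10 for all genes. There 10 of 23 were at least 2-fold lower (background 12.5%) and 3 higher (background 4.74%). Against CTRL the 3 higher were the early-response genes Fos, Fosb and Ier2. Egr3, also an early-response factor, was among the 6 lower with Acta2, Tagln, Myl9, Cnn2 and Vcl, genes of the contractile or actin cytoskeleton. Acta2, Tagln and Myl9 were at 0.0944, 0.760 and 0.185 FPKM in the etoposide library, against 4.61, 4.82 and 2.76 FPKM in CTRL. Acta2 and Myl9 rested on about 2 fragments each and Cnn2 on about 3 in the etoposide library, and the first pair's ratios have intervals of 13.2 to 406 and 4.83 to 157. Acta2 and Tagln also mark smooth muscle and mural cells, and the 7 endothelial and mural markers summed to 1.16 FPKM in the etoposide library and 10.3 FPKM in CTRL, mostly from Acta2 and Tagln. The part of such cells in the SRF target values was not tested.

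**Figure D5:**
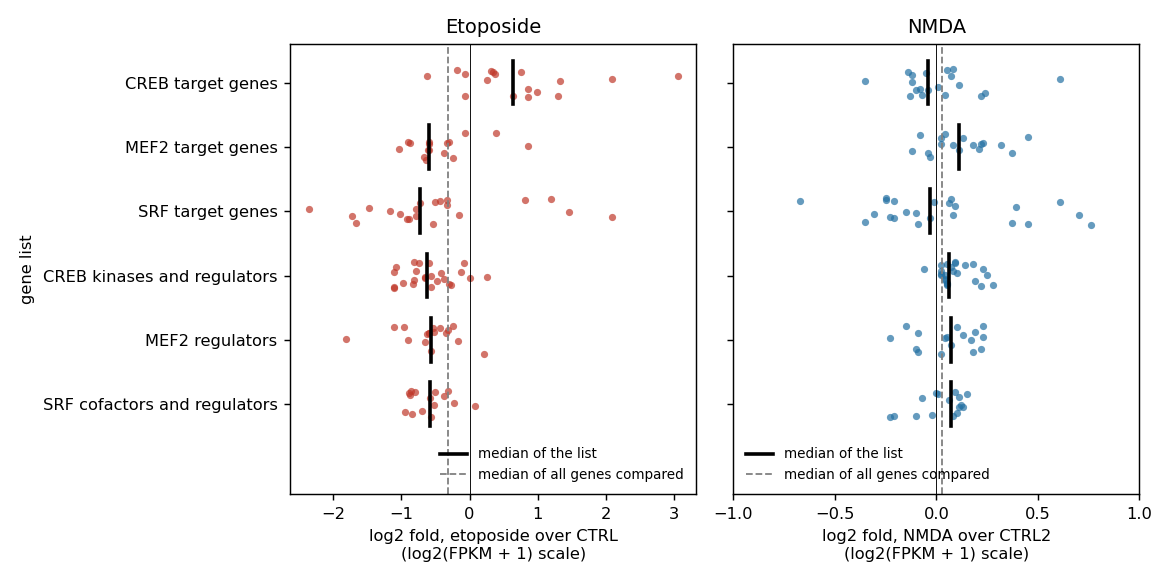
Log2 folds on the log2(FPKM + 1) scale of measured genes in 3 lists of target genes and 3 lists of regulators, etoposide over CTRL on the left and NMDA over CTRL2 on the right, each point a gene. Black bars mark list medians and dashed lines the median of all genes compared. With etoposide the bar of the CREB targets lies at 0.64 and those of the MEF2 and SRF targets at -0.60 and -0.72; with NMDA the 6 bars lie between -0.04 and 0.11.

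With NMDA the regulators and targets stayed close to CTRL2. Of 60 measured regulators outside the 10, 0 were at least 2-fold higher or lower and the median log2 fold was 0.05. Below 0 were 15 of the 60 (background 42.8%). Adcy1 was at 95.9 FPKM in the NMDA library and 78.7 FPKM in CTRL2, Camk4, the nuclear kinase that acts on CREB, at 35.4 and 29.5 FPKM, and the calcineurin subunit genes Ppp3cb and Ppp3r1 at 78.4 and 66.5 FPKM and at 116 and 99.2 FPKM. Lower in the NMDA library were Crtc3, at 3.84 FPKM there and 4.61 FPKM in CTRL2, and Crtc2, at 4.19 and 4.55 FPKM. So were the SRF cofactor genes Elk3, at 0.848 and 1.16 FPKM, and Fhl2, at 6.65 and 7.85 FPKM. List medians were -0.04 for CREB, 0.11 for MEF2 and -0.03 for SRF targets. Of these lists, 10 of 19, 4 of 17 and 13 of 23 targets were below 0 in that order. Lower targets included Gadd45b, of the CREB list, at 4.95 FPKM in the NMDA library and 6.59 FPKM in CTRL2. Higher targets included Fosb at 4.46 FPKM in the NMDA library and 2.21 FPKM in CTRL2, Junb at 37.0 and 22.4 FPKM, Fos at 40.2 and 25.9 FPKM, Egr1 at 42.6 and 30.9 FPKM and Arc, which acts in synaptic plasticity, at 9.66 and 7.27 FPKM. The authors' deposited table listed Fosb, Junb, Fos and Egr1 as higher. It listed 1 SRF target as lower, Flna, an actin crosslinker named after its value was seen, at 25.8 FPKM in the NMDA library and 41.7 FPKM in CTRL2.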

How the data were processed

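Paired-end RNA-seq was done on 4 libraries from a total RNA kit, per the labels' protocols. Among the tools in the submitters' processing notes are TopHat, Bowtie, Cuffdiff and Cufflinks 2.0.0, listed without their roles, and the build there is mm9. The authors' deposited FPKM were taken unchanged. Their 2 comparison tables (692 and 63 genes) hold the same FPKM within a relative tolerance of 0.0001, and the sources used here give no listing rule.

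The members and the gene lists were chosen with earlier results of these data known. Grouping followed sample titles. Folds were log2((treated + 1)/(control + 1)), which understates changes of low genes, for genes at FPKM 1 or above in 1 or both libraries, with a size rule of 2-fold. Plain ratios have no pseudocount. Median scaling used genes with FPKM of at least 5 in both libraries. Fragment numbers came from low-value steps of single-exon genes and the median coding transcript length in GENCODE, and their intervals are Clopper-Pearson for ratios between libraries, exact Poisson for levels and a normal approximation on the log scale for ratios within a library. Besides the members, named genes were up to 4 per list with the largest fold for etoposide and 2 for NMDA; others were named after their values were seen, and some genes are not reported here. Steps were tested on simulated data, with Python 3.11.15, NumPy 2.4.6, pandas 2.3.3 and SciPy 1.17.1.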

Additional observations from a re-analysis of the deposited data

How the results depend on the processing

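No paired analysis was possible because each group had 1 library. Mef2c, the member at least 2-fold lower with etoposide in the main setting, was that much lower under all 8 alternatives. For etoposide, the count of members at least 2-fold lower was 1 in the main setting, 4 with a pseudocount of 0.1 (14.5% of all genes) and with the plain ratio (15.9%), and 9 against CTRL2 as deposited (84.5%); the count higher was 0 in the main setting and 1 (Crem) with a pseudocount of 0.1, the plain ratio, median scaling, values relative to all genes, and CTRL2 with median scaling. The members' median log2 fold of -0.74 was -0.42 relative to all genes, -1.86 against CTRL2 and -0.20 against CTRL2 with median scaling. For NMDA, 8 members were at least 2-fold higher against CTRL as deposited, where 76.5% of all genes were, and the median of 0.16 was 1.32 there. With median scaling it was 0.12 against CTRL2 and -0.14 against CTRL, so on that scale the direction turned with the control. Against the other control as deposited, the different FPKM scale of the pairs enters by construction. With median scaling that scale is divided out, and why values still moved there was not tested. The remaining settings change the pseudocount, the filter or a scaling constant, and no cause beyond that was tested. Of the members' single values, 28 of 75 for etoposide and 19 of 80 for NMDA moved by more than their counting error. With FPKM of at least 5, 5 members were measured for etoposide. Crem, with 29 to 122 fragments, is the member that depth limits most.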
